A study of Mus musculus with 23 samples.

Results

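Whole-brain expression was compared between the adult male offspring of mothers fed a low-protein diet with added folic acid, the FA group, and the offspring of mothers fed the control diet, the CD group. The comparison was made of the 8 expression arrays that the labels give to these diets, 4 from each group, out of 23 samples in the series. The FA diet held 5% casein and 0.1% folic acid, and the CD diet held 20% casein and 0.02% folic acid, so the groups differ in both nutrients at once. Another group, PR, whose diet held 5% casein and 0.02% folic acid, gave 4 further arrays that share the same fit and are named only where an FA value needs a neighbour. All mice were C57BL/6J males of 19 weeks that came from in vitro fertilised embryos carried by ICR mothers on the diets, were delivered by cesarean, were nursed by ICR foster mothers, received the control diet after weaning and had been through behavioural tests. The sources are not of one mind on whether the foster mothers were fed the control diet or the diet of the group, so the nursing diet may also differ between groups. The brains were taken months after birth, and the cerebrum and cerebellum were extracted together.

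Folic acid is the supplied form of folate, which carries single carbon units for the synthesis of purines and thymidine and for the remethylation of homocysteine to methionine, the source of methyl groups for DNA. A shortage of amino acids acts on cells through insulin and IGF signalling, through the mTOR kinase and through the transcription factor ATF4. Neurons also switch on immediate early genes, most of which encode transcription factors, within minutes of activity. Levels of such genes are read here in tissue that holds neurons, glia, vessels, ependyma and choroid plexus, and in whole tissue fewer cells of a type and less RNA per cell cannot be told apart.

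Each array carried 43020 spots for 39429 probes of 60 bases, and levels are given as log2 of the normalized signal, on which a difference of 1 is a 2-fold difference. A level is compared only between arrays for the same probe. A gene was counted as measured when a probe for it was well above background on all 8 arrays, and its brightest probe then stood for it, which left 16841 genes. The FA arrays had 30408 to 31672 spots well above background and the CD arrays 27068 to 28458. The net signal of the negative control spots was 39.3 to 47.6 on FA arrays and 28.1 to 34.8 on CD arrays. Each diet was hybridised on a slide of its own, so the slide and the diet cannot be told apart in any value below. Of 13 measured pan-neuronal markers, 4 rose, none fell and 9 were not called, with a median difference of 0.032 that was −0.079 under scaling to the 75th percentile, and the share that rose, 30.8%, was 7.69% to 23.1% without single arrays. Of the anterior pituitary hormones, growth hormone (Gh) was at 7.83, 8.36, 7.73 and 7.82 on the CD arrays and at 2.58, 2.27, 2.26 and 6.16 on the FA arrays. Prolactin (Prl) was at 7.88, 7.84, 7.97 and 7.91 on the CD arrays and at 2.42, 2.47, 2.39 and 7.35 on the FA arrays. Both were well above background on all 4 CD arrays and only on FA array 4, and on no PR array. Pomc, Lhb and Pou1f1, the 3 pituitary genes of 9 that counted as measured, were not called, and the part of pituitary tissue in other results was not tested. Of markers of blood and muscle, 1 of 6 measured erythroid genes fell, and none of 7 granulocyte genes and none of 7 skeletal muscle genes was called.

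Across the 16841 measured genes, 2770 (16.4%) were lower in FA brains than in CD brains and 3214 (19.1%) were higher at a limma adjusted p under 0.05. These 2 percentages are the background against which each list of genes is read below. Which of the 2 is larger depended on the scaling, since with each array scaled to its 75th percentile 3308 genes (19.6%) were lower and 2995 (17.8%) higher. In 37.6% of measured genes, every FA array lay on the same side of all CD arrays. Most differences were small: the median size was 0.153 on the log2 scale, the 90th percentile 0.462 and the 99th percentile 0.929. A 2-fold difference at the same adjusted p was reached by 71 genes (0.422%) that were lower and 26 (0.154%) that were higher. Over all 39429 probes, 7210 (18.3%) were lower and 6473 (16.4%) higher. With the study's own limits of 2-fold and an adjusted p under 0.0001, 25 probes (0.0634%) were lower and 53 (0.134%) higher, and these counts came to 0 to 4 and 0 to 13 when any 1 of the 8 arrays was left out. By contrast, 119 measured genes (0.707%) differed between the FA and PR groups. Both low-protein groups were compared with the same CD arrays, so PR values stand beside FA values only as a description.

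The genes with the largest differences included many without a known function. Among probes that were bright on all 8 arrays, called and without overlap between the groups (38.6% of 23754 bright probes had none), the 12 largest rises, counting 1 probe a gene, ran from 1.24 to 1.63 on the log2 scale and the 12 largest falls from −1.46 to −2.94. The largest rise was that of 1600020E01Rik, an uncharacterised transcript on chromosome 6, with CD levels of 5.37, 5.38, 5.59 and 5.28 and FA levels of 7.04, 7.03, 7.03 and 7.03. This is a 3.08-fold rise (1.63 ± 0.09, SE, limma adjusted p = 1.89e-05), and it is also 0.47 above the PR group (limma adjusted p = 0.0459). Sizes of dim genes depended on the background correction. With normexp, 19 of the 33 genes rerun one by one differed by less than the printed size divided by 1.5. All kept their direction, and 1600020E01Rik then rose by 0.71. The amylase gene Amy2a5, which encodes a starch-digesting enzyme, rose by 1.33 ± 0.09 (SE, limma adjusted p = 3.64e-05), and by 0.76 with normexp. Another probe of Amy2a5, well above background on only 1 CD array, rose by 0.455 (limma adjusted p = 0.0169). Col24a1, a fibrillar collagen, rose by 1.26 ± 0.13 (SE, limma adjusted p = 0.000101), and by 0.61 with normexp. Fgf7, a growth factor that acts on epithelial cells through an FGF receptor, was at 8.82, 8.36, 8.34 and 8.32 on the CD arrays and at 10.57, 10.08, 9.33 and 8.93 on the FA arrays. The lowest FA array was only just above the highest CD array, and the difference of 1.27 ± 0.30 (SE) had a limma adjusted p of 0.00814. The PR group was −0.09 from the CD group for Fgf7, and the FA to PR difference of 1.36 had a limma adjusted p of 0.0727.

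**Figure D1:**
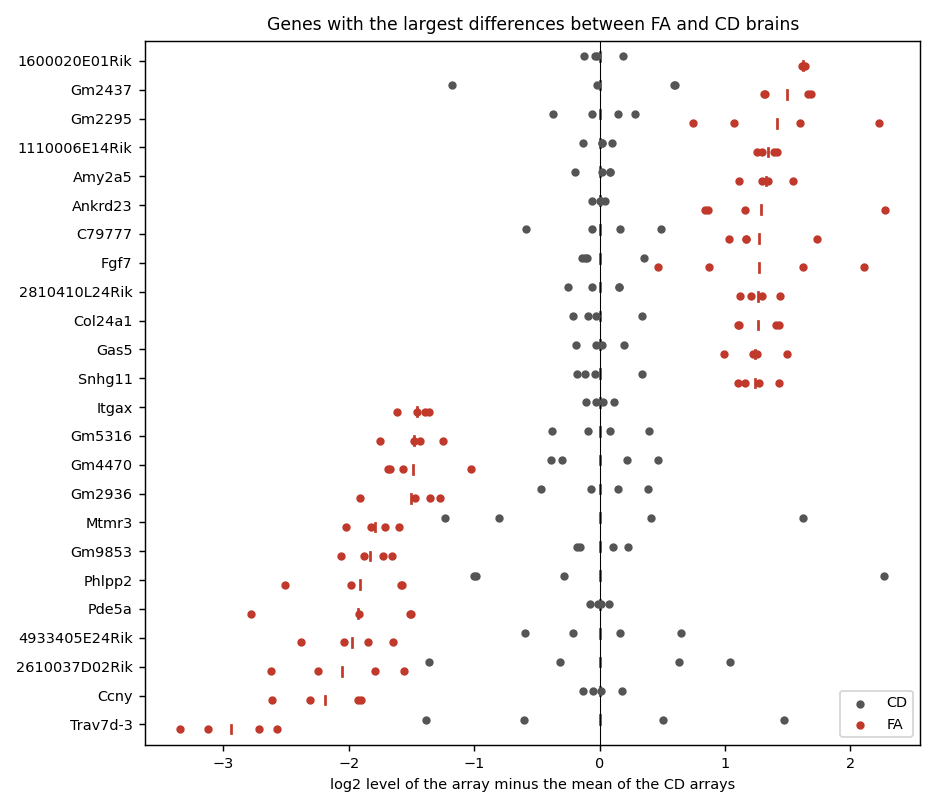
Levels on the 4 CD and 4 FA arrays of the 12 genes with the largest rises and the 12 with the largest falls, each as the log2 level minus the mean of the CD arrays; short lines are group means. The points of 1600020E01Rik lie close together in each group, whereas the CD arrays spread widely for Trav7d-3, Phlpp2 and Mtmr3.

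Several of the 12 falls came from genes whose CD arrays lay far apart from each other. Trav7d-3, a gene segment of the T cell receptor alpha chain, was at 9.35, 8.38, 7.27 and 6.49 on the CD arrays and between 4.53 and 5.30 on the FA arrays, a difference of −2.94 ± 0.55 (SE, limma adjusted p = 0.00241) that was −1.41 with normexp. Another bright probe of Trav7d-3 was at −0.37 and not called (limma adjusted p = 0.0884). Pde5a, the phosphodiesterase that breaks down cyclic GMP, was at 9.90, 9.97, 9.81 and 9.88 on the CD arrays and at 7.97, 7.12, 8.38 and 8.39 on the FA arrays (−1.93 ± 0.43, SE, limma adjusted p = 0.00578). The PR arrays of Pde5a were at 9.62, 9.80, 8.02 and 8.13, so 2 of them lay with the CD arrays and 2 with the FA arrays. Itgax, an integrin subunit of dendritic cells and some microglia, was at 6.18, 6.31, 6.397 and 6.25 on the CD arrays and between 4.67 and 4.92 on the FA arrays (−1.46 ± 0.31, SE, limma adjusted p = 0.00434), and its difference was −0.49 with normexp. Gm9853, a predicted gene on chromosome 8, fell by 1.83 ± 0.14 (SE, limma adjusted p = 4e-05) and was also 0.88 below the PR group, where the difference of −0.88 had a limma adjusted p of 0.0313. Phlpp2, a phosphatase that acts on the AKT kinase, owed much of its mean to the second CD array, at 8.86 against 5.59 to 6.31 on the other CD arrays. The fitted fall of Phlpp2 was −1.91 ± 0.64 (SE, limma adjusted p = 0.0404), and its adjusted p passed 0.05 with normexp (where the difference was −0.88) and when any of 5 single arrays was left out. Without the high CD array 2 the difference was −1.16 (limma adjusted p = 0.0233), and the other bright probe of Phlpp2 was at −0.11 and not called (limma adjusted p = 0.137). Mtmr3, a lipid phosphatase, was at 7.16, 5.95, 5.52 and 8.37 on the CD arrays and between 4.72 and 5.14 on the FA arrays, a fitted difference of −1.79 ± 0.50 (SE, limma adjusted p = 0.0187). With normexp the difference of Mtmr3 was −0.81. Of the other probes of Mtmr3, one rose by 0.17 (limma adjusted p = 0.0157) and one was at −0.21 and not called.

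Many more probes crossed the background limit upward than downward. On all 4 FA arrays and no CD array, 1260 probes were well above background, and 1 probe showed the opposite. The counts of bright spots and the negative control signal were also higher on the FA arrays, as given above. The lowest log2 signal well above background was 3.70 to 4.01 on the FA arrays and 4.76 to 5.28 on the CD arrays. A probe with an unchanged level between these limits would also count as crossing. The part of these differences between arrays in the crossings was not tested. Eps8l1, a relative of an actin-binding adaptor, was at least 3.76-fold higher in the FA group, with CD levels from 4.00 to 4.75 and FA levels from 6.05 to 7.51 (limma adjusted p = 0.000217). The other bounds by the same rule were 2.14-fold to 3.07-fold, for 5930430L01Rik, Morn3, Tmc2 and 1700061I17Rik. A further probe of 1700061I17Rik, dim on all 8 arrays, was at −0.65 and not called (limma adjusted p = 0.0876). A further probe of Morn3 was at 0.33 and not called (limma adjusted p = 0.211). The opposite case was Gm2557, at least 2.75-fold lower in the FA group (limma adjusted p = 0.000541). These bounds hold for the processed signal only. With normexp the log2 differences were 0.93 for Eps8l1, 0.92 for 5930430L01Rik, 0.48 for Morn3, 0.47 for Tmc2, 0.40 for 1700061I17Rik and −0.54 for Gm2557, each smaller than its bound.

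Probes for the same gene did not always move together. Of 2 long noncoding RNAs with 3 probes each, Gas5 showed this, whereas all 3 probes of Meg3 rose. Gas5 hosts small nucleolar RNAs in its introns and binds the glucocorticoid receptor, and Meg3 is an imprinted RNA expressed from the maternal chromosome. The sequences of 5 of these probes are shown because they carry the contrast. They are printed 5′ to 3′ as the array files give them, with the polyadenylation hexamers AATAAA or ATTAAA in capitals where they occur, and the positions, written in ascending order in the files, are those of mm9.
Gas5 probe 1, chr1:162966369-162966428: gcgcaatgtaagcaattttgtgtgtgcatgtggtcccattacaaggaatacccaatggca
Gas5 probe 2, chr1:162967350-162967409: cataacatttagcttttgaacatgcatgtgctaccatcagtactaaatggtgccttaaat
Gas5 probe 3, chr1:162968608-162968667: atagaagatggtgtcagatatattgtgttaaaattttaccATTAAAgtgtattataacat
Meg3 probe 2, chr12:110799558-110799617: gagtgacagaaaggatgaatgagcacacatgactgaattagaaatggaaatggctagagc
Meg3 probe 3, chr12:110809678-110809737: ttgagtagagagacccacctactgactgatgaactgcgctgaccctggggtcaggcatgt

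For Gas5, probe 1 was at 7.68, 7.43, 7.26 and 7.08 on the CD arrays and at 8.57, 8.34, 8.55 and 8.47 on the FA arrays, a rise of 1.12 ± 0.11 (SE, limma adjusted p = 8.53e-05). Probe 2 of Gas5 rose by 1.24 ± 0.14 (SE, limma adjusted p = 0.000162). Probe 3 of Gas5, with the highest coordinates, was at 13.07, 13.17, 13.09 and 13.03 on the CD arrays and at 13.11, 13.17, 13.05 and 13.05 on the FA arrays, a difference of 0.005 ± 0.047 (SE, limma adjusted p = 0.953). So the groups did not overlap for probes 1 and 2 of Gas5 and overlapped for probe 3. All 3 probes of Meg3 rose, by 1.24, 0.76 and 0.97 in the order of their positions, and the brightest was at 13.97, 14.05, 13.89 and 13.95 on the CD arrays and was at least 14.88 on each FA array (limma adjusted p = 3.13e-05). Of the 9 measured hosts of small nucleolar RNAs, 3 rose and none fell. Those 3 were Snhg11 (0.99 ± 0.09, SE, at its brightest probe), Snhg7 (0.65) and Snhg1 (0.38). Among all genes with 2 or more bright probes, 4025 in number, the 2 brightest were both called in the same direction for 564 and in opposite directions for 147. Where the brightest probe was called, the next lay on the same side of 0 in 69.5%.

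**Figure D2:**
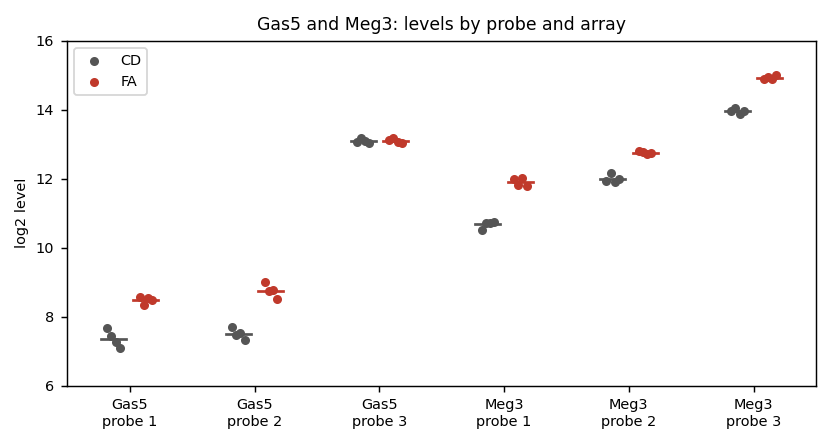
Log2 levels on each CD and FA array for the 3 probes of Gas5 and the 3 probes of Meg3, numbered along the chromosome; short lines are group means. The FA arrays lie above the CD arrays for 5 probes, and the groups coincide for Gas5 probe 3 at about 13.1.

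Immediate early genes were lower in the FA group. Of 31 measured members, 13 fell and none rose, with a median difference of −0.338 against 0.005 over all measured genes. Klf2, a Kruppel-like transcription factor also abundant in endothelium, was at 12.12, 12.07, 12.08 and 12.09 on the CD arrays and at 11.23, 10.82, 11.24 and 10.98 on the FA arrays. Its difference of −1.02 ± 0.09 (SE, limma adjusted p = 6.98e-05) was the largest fall of the list, and the groups of Klf2 lay far apart. Egr2, a zinc finger factor, was between 9.95 and 10.15 on the CD arrays and at 8.51, 9.72, 8.999 and 9.50 on the FA arrays (−0.84 ± 0.22, SE, limma adjusted p = 0.0132). Atf3, a bZIP factor that stress also induces, was between 7.81 and 7.92 on the CD arrays and between 6.96 and 7.10 on the FA arrays (−0.80 ± 0.09, SE, limma adjusted p = 0.000153). Further falls were those of the kinase Sik1 (−0.73), Klf4 (−0.71), Fosl2 (−0.62), Fosb (−0.56), the nuclear receptor Nr4a2 (−0.47) and Jun (−0.40).

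The best-known activity genes did not pass the test, and their FA arrays lay far apart. Fos was at 11.00, 10.83, 11.05 and 11.20 on the CD arrays and at 9.93, 10.96, 10.51 and 10.88 on the FA arrays, a difference of −0.45 ± 0.21 (SE, limma adjusted p = 0.126). Arc, which encodes a synaptic capsid-like protein, was between 14.45 and 14.57 on the CD arrays and at 13.60, 14.54, 14.06 and 14.39 on the FA arrays. Npas4, a factor of inhibitory synapse formation, was between 12.23 and 12.28 on the CD arrays and at 11.01, 12.77, 12.04 and 12.52 on the FA arrays. In all 3 genes the first FA array was the lowest, and the FA arrays lay on both sides of the CD range for Npas4. Over the 31 genes the median SD was 0.070 on the CD arrays, 0.156 on the FA arrays and 0.179 on the PR arrays, and the SD was smaller on the CD arrays than on the FA arrays for 28 of them. Over all 16841 measured genes the order was the other way, with a median SD of 0.095 on the CD arrays and 0.081 on the FA arrays. The CD arrays were thus closer to each other than the FA arrays in these genes and not over all genes.

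**Figure D3:**
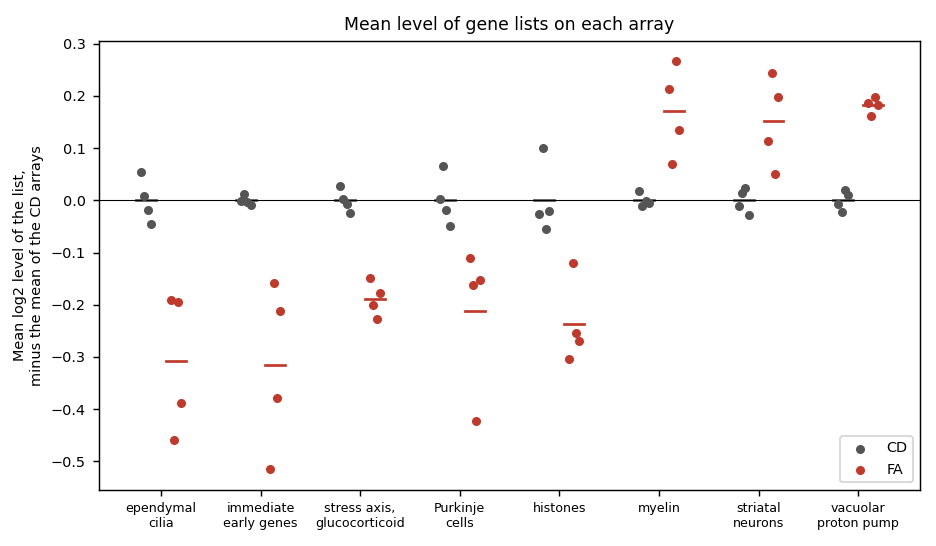
Mean log2 level of the measured genes of 8 lists on each array, minus the mean of the CD arrays; points are arrays and short lines are group means. The 4 CD arrays lie within 0.02 of their mean for the immediate early genes, whereas the FA arrays range from −0.52 to −0.16.

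The promoters of the 3 immediate early genes with the largest falls are shown because many genes of this class are induced through the cyclic AMP response element, whose core is TGACG. Of the 5 promoters that the table holds for Egr2, the one with most matches is printed. Each covers 300 bases around the start site in RefSeq's GRCm38.p6, most of them upstream, with TGACG or its reverse complement CGTCA in capitals.
Klf2, chr8:72318812-72319111, plus strand: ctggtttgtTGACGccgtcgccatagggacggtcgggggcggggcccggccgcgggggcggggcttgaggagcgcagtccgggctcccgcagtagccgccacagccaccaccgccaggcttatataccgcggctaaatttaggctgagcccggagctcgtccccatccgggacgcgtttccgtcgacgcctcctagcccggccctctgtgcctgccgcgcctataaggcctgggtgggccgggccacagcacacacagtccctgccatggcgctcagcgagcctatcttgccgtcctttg
Egr2, chr10:67537619-67537918, plus strand: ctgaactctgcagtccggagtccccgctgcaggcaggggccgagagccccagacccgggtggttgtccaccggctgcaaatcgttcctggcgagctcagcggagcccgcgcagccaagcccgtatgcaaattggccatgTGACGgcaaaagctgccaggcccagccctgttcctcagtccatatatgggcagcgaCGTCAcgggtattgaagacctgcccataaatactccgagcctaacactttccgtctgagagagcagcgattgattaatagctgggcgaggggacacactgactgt
Atf3, chr1:191183284-191183583, minus strand: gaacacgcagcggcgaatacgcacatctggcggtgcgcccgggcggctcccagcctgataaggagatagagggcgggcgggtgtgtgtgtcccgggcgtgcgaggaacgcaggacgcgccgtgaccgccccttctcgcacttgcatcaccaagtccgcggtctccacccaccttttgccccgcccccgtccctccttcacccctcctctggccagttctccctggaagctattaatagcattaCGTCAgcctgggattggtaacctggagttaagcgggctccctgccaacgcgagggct

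The letters TGACG, on either strand, stood in 6228 of 27025 genes with a promoter in the table (23%, any promoter of a gene counted) and in 20.8% of the 32851 promoters. They stood in 9 of the 12 immediate early genes that fell and had a promoter there, and in 9 of the 13 that were not called. The full palindrome TGACGTCA, which contains the core, stood in 1 of the former and 2 of the latter.

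Genes of the stress axis and of the glucocorticoid response fell more often than they rose. Of 23 measured members, 9 fell, 1 rose and 13 were not called, with a median of −0.173. Sgk1, a kinase induced by glucocorticoids, was at 14.09, 13.97, 14.09 and 14.03 on the CD arrays and at 13.26, 12.58, 13.19 and 12.81 on the FA arrays, a difference of −1.09 ± 0.29 (SE, limma adjusted p = 0.0143). Nfkbia, the inhibitor of NF-kappa B, fell by 0.77 ± 0.13 (SE, limma adjusted p = 0.00137), with all FA arrays between 12.34 and 12.46 and all CD arrays between 13.09 and 13.26. Pdk4, a kinase that restrains pyruvate oxidation, fell by 0.60, the cell cycle inhibitor Cdkn1a by 0.43 and the clock gene Per1 by 0.42. The glucocorticoid receptor Nr3c1 fell by 0.25 ± 0.06 (SE, limma adjusted p = 0.0111). Fkbp5, which restrains that receptor, differed by −0.17 and did not pass the test, and the releasing hormone Crh differed by 0.07. The member that rose was Crhbp, which binds the releasing hormone (0.46 ± 0.06, SE, limma adjusted p = 0.000443). Under scaling to the 75th percentile the median of this list was −0.253, and the list's share of genes that were lower was at least 34.8% under each of the alternatives run.

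Insulin, IGF and mTOR signalling was lower for more genes than the background. Of 31 measured members, 13 fell and 2 rose, although the median was −0.061. Foxo3, the forkhead factor that insulin signalling excludes from the nucleus, was at 6.23, 6.64, 6.22 and 6.18 on the CD arrays and at 4.71, 4.91, 4.94 and 4.996 on the FA arrays (−1.43 ± 0.19, SE, limma adjusted p = 0.000333). Grb10, an imprinted adaptor that dampens the insulin and IGF receptors, was at 8.07, 8.31, 7.97 and 7.76 on the CD arrays and at 7.14, 7.21, 6.90 and 7.13 on the FA arrays (−0.93 ± 0.10, SE, limma adjusted p = 0.000142). Neither gene had an FA array within the CD range. The Foxo3 probe was dim, with FA levels near the lowest signal well above background on the CD arrays, 4.76 to 5.28. Itgax, at similar levels, went from −1.46 to −0.49 with normexp. For Foxo3 alone the size with normexp was not tested. The receptors fell as well, Igf2r, which clears IGF2, by 0.47 and Igf1r by 0.42. Among the transducers Irs1 fell by 0.39, Irs2 by 0.35, Rictor by 0.28, Tsc1 by 0.21, Tsc2 by 0.18 and Mtor by 0.17. The growth factors themselves were not called, with Igf1 at 0.08 and Igf2 at 0.07. The rises were those of Igfbp4, an IGF-binding protein (0.52 ± 0.12, SE, limma adjusted p = 0.00715), and of Pik3ca, a catalytic subunit of PI3 kinase (0.23). Irs2 was the member that also differed from the PR group, where the difference was −0.41 (limma adjusted p = 0.0475).

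**Figure D4:**
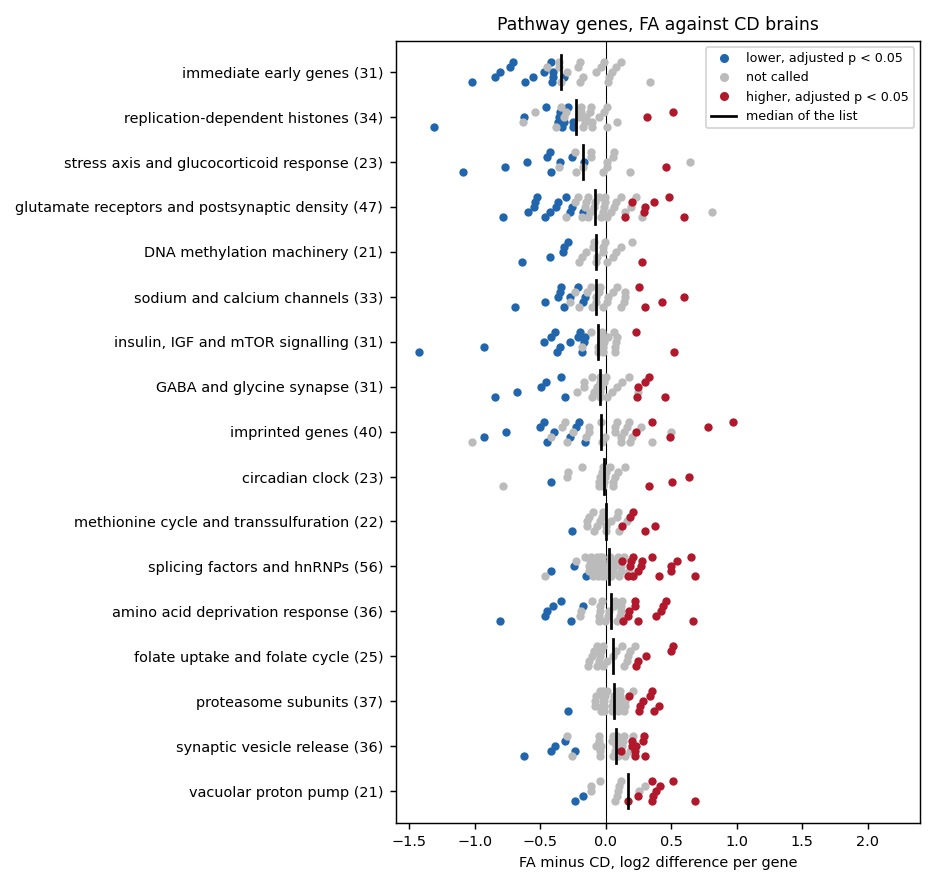
Log2 difference between FA and CD groups for each measured gene of 17 pathway lists, with the number of genes in brackets; blue points fell, red points rose and grey points were not called at an adjusted p under 0.05, and black bars are list medians. Immediate early genes lie mostly to the left with a median of −0.338, and vacuolar proton pump genes mostly to the right with a median of 0.171.

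For folate metabolism, which the diet addresses directly, the share of rises was at the background. Of 25 measured members 5 rose, which is 20% against 19.1% over all measured genes, and none fell, against 16.4%, although 4% fell without CD array 2 or with normexp. Mthfs, which returns a storage form of folate to the active pool, was at 6.81, 6.52, 6.85 and 6.71 on the CD arrays and at 7.19, 7.14, 7.37 and 7.25 on the FA arrays (0.51 ± 0.09, SE, limma adjusted p = 0.0012). Amt, a component of the glycine cleavage system, rose by 0.50 ± 0.11 (SE, limma adjusted p = 0.00578), and Gart, an enzyme of purine synthesis, by 0.31. Mthfd1, which interconverts folate forms, rose by 0.25. The folate receptor Folr1 differed by 0.08 and the carriers Slc19a1 and Slc46a1 by 0.14 and 0.06, none of which passed the test. None of the 25 genes was called between the FA and PR groups, which share the protein level and differ in folic acid. Over all measured genes 0.707% were called there, so the absence of calls does not set the folate genes apart. In the methionine cycle and transsulfuration 5 of 22 rose, with Ahcyl1 (0.38 ± 0.06, SE), a relative of the hydrolase of S-adenosylhomocysteine, and Cth (0.30), the last enzyme of cysteine synthesis, at the top. The choline oxidase Chdh fell by 0.26. Methionine synthase Mtr differed by −0.10 and was not called. The share of that list that rose, 22.7%, was 9.09% without CD array 2 and 13.6% under scaling to the 75th percentile.

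Of 21 measured genes that write, read or erase DNA methylation, 5 fell (23.8%) and 1 rose (4.76%), with a median of −0.077. The shares over all measured genes were 16.4% and 19.1%. With all bright probes of the list counted, 18.2% fell and 9.09% rose, against 17.3% and 20% of all bright probes. Tdg, a glycosylase that removes oxidised methylcytosine, was between 8.39 and 8.45 on the CD arrays and between 7.56 and 7.93 on the FA arrays, a difference of −0.64 ± 0.08 (SE, limma adjusted p = 0.000187), although its other 2 bright probes were not called. The oxidase Tet2 fell by 0.43, the de novo methyltransferase Dnmt3a by 0.33 ± 0.06 (SE, limma adjusted p = 0.00293) and the maintenance methyltransferase Dnmt1 by 0.29 ± 0.04 (SE, limma adjusted p = 0.00074). Mbd2, which binds methylated DNA, rose by 0.27. Among 40 measured imprinted genes, 10 fell (25%) and 5 rose (12.5%). Beside Meg3, the microRNA host Mirg of the same cluster rose by 0.78 with both probes called, Ndn by 0.49 and Snrpn by 0.36. Beside Grb10, the antisense RNA Kcnq1ot1 fell by 0.76 ± 0.12 (SE, limma adjusted p = 0.00109), the cell cycle inhibitor Cdkn1c by 0.45 and the antisense RNA Airn, at −0.40.

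The ATF4 response to amino acid shortage was split. Of 36 measured members 11 rose and 7 fell. The rises held aminoacyl-tRNA synthetases, of which Mars, for methionine, was between 10.37 and 10.48 on the CD arrays and between 10.87 and 10.93 on the FA arrays (0.46 ± 0.04, SE, limma adjusted p = 7.22e-05). Slc7a5, a transporter of large neutral amino acids, rose by 0.67 ± 0.20 (SE, limma adjusted p = 0.0241), although CD array 4, at 11.96, lay below the others at 12.84 to 12.91. Chac1, which breaks down glutathione, rose by 0.42 and the pseudokinase Trib3 by 0.39. The falls held Atf3, Cebpb (−0.46), the mTOR inhibitor Ddit4 (−0.45) and Sesn2 (−0.40). Asns, the asparagine synthetase, differed by −0.005 and did not pass the test. The median of the list was 0.043, and it was −0.034 under scaling to the 75th percentile. The share that rose, 30.6%, was 22.2% under that scaling and with normexp, and 19.4% without FA array 1, which is near the background of 19.1%.

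Of the circadian genes, 3 of 23 rose (13%) and 1 fell (4.35%), both below the shares over all measured genes. Nr1d1, the repressor REV-ERB alpha, was at 10.15, 10.15, 10.23 and 10.12 on the CD arrays and at 10.90, 10.80, 10.73 and 10.77 on the FA arrays (0.64 ± 0.06, SE, limma adjusted p = 7.13e-05). The output factor Dbp rose by 0.51, the related repressor Nr1d2 by 0.33, and Per1 fell by 0.42. The core factors Clock (−0.001), Arntl (0.07), Per2 (−0.02) and Cry1 (0.15) were not called. The hours at which the brains were taken are not given in the sources used here.

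Ependymal cilia had the lowest median of the cell classes, although erythroid markers were lower under scaling to the 75th percentile (−0.412 against −0.355) and with normexp (−0.309 against −0.257). Of 13 measured genes of ependymal cilia 9 fell and none rose, with a median of −0.365. Hydin, a protein of the central pair of motile cilia, was at 7.90, 8.05, 7.72 and 8.12 on the CD arrays and at 7.68, 7.30, 7.08 and 7.18 on the FA arrays (−0.63 ± 0.13, SE, limma adjusted p = 0.00317). Ccdc153, an ependymal coiled-coil protein, was between 10.70 and 10.77 on the CD arrays and at 10.50, 9.88, 10.55 and 10.17 on the FA arrays (−0.45 ± 0.13, SE, limma adjusted p = 0.019). Dnahc5, a heavy chain of ciliary dynein, fell by 0.53, Tmem212 by 0.42, Dynlrb2 by 0.38 and Rsph1 by 0.37. Foxj1, the master regulator of motile cilia, was at 10.25, 10.16, 10.25 and 10.25 on the CD arrays and at 10.08, 9.82, 10.30 and 10.02 on the FA arrays, and its difference of −0.17 did not pass the test (limma adjusted p = 0.133). FA arrays 2 and 4 were the lowest for the mean of the list, at −0.46 and −0.39 from the CD mean, and FA arrays 1 and 3 were at −0.19. None of the 13 was called between the FA and PR groups, where 0.707% of all measured genes were called.

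The promoter of Hydin is shown for the cilia genes, with GTTGCC or its reverse complement GGCAAC, letters found in the X-box that RFX factors bind, in capitals.
Hydin, chr8:110266727-110267026 of GRCm38.p6 (RefSeq), plus strand: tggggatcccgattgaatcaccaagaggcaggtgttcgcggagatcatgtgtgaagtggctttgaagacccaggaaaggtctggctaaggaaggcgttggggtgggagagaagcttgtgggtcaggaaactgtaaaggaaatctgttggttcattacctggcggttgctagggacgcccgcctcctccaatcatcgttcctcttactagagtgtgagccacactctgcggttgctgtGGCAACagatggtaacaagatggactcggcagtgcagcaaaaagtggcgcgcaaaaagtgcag

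These letters stood in 5 of the 8 cilia genes that fell and had a promoter in the table, in all 3 that were not called and had one, and in 14.1% of all genes there. The promoter of Dnahc5 did not hold them.

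**Figure D5:**
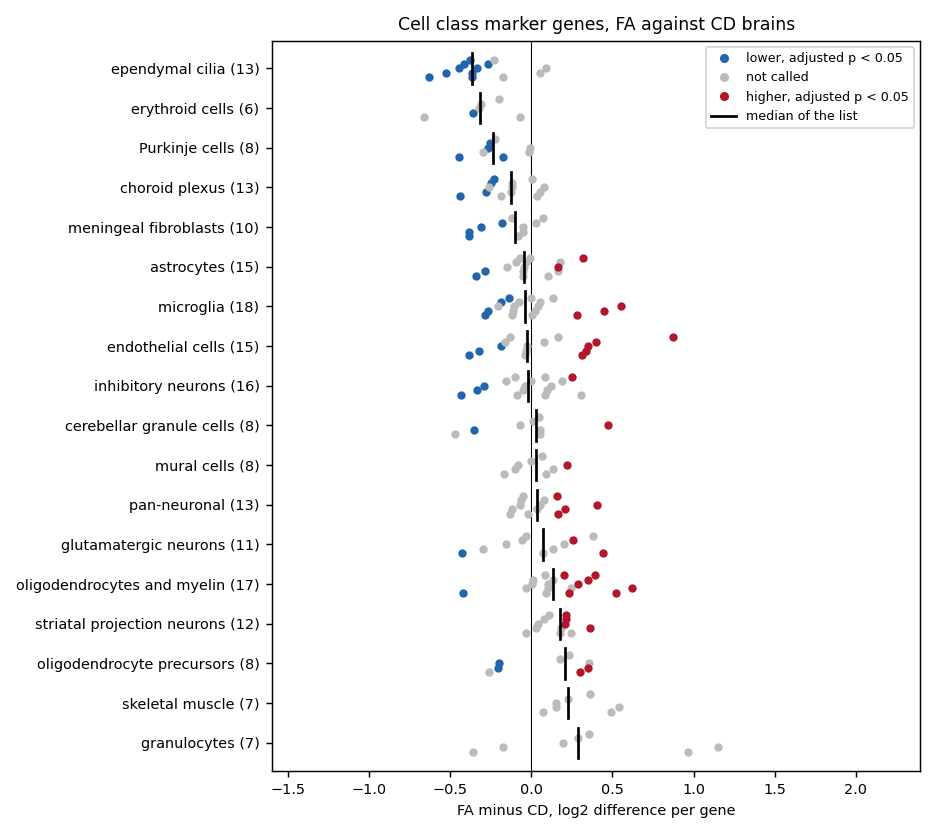
Log2 difference between FA and CD groups for each measured marker of 18 cell classes, with the number of genes in brackets; blue points fell, red points rose, grey points were not called at an adjusted p under 0.05, and black bars are medians. Ependymal cilia have a median of −0.365 and no red point.

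Choroid plexus, meningeal and Purkinje cell markers also fell more often than they rose. In the choroid plexus 4 of 13 markers fell and none rose, led by the prolactin receptor Prlr (−0.44 ± 0.08, SE, limma adjusted p = 0.0026), whereas the defining markers Ttr (−0.12) and Kl (0.001) were not called. In meningeal fibroblasts 4 of 10 fell, led by the transporter Slc22a6 (−0.39) and by Aldh1a2 (−0.38), which makes retinoic acid. Of 8 Purkinje cell markers 4 fell, Rgs8 by 0.45, Calb1 by 0.27, Pcp2 by 0.26 and Slc1a6 by 0.18, and none rose. The share of Purkinje cells markers that fell, 50%, was 12.5% without FA array 3 and 25% without CD array 1, 2 or 3 or FA array 4. Without single arrays the share that fell ranged from 15.4% to 46.2% for choroid plexus and from 20% to 80% for meningeal fibroblasts.

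Oligodendrocyte and striatal markers had more rises than the background. Of 17 myelin genes 7 rose (41.2%) and 1 fell (5.88%), with a median of 0.130. The share that rose was 29.4% under scaling to the 75th percentile. Over all 23 bright probes of these genes 7 rose (30.4%) and 4 fell (17.4%), against 20% and 17.3% of all bright probes. Ugt8a, which makes the myelin lipid galactosylceramide, was at 10.33, 10.31, 10.46 and 10.64 on the CD arrays and at 11.10, 10.85, 11.22 and 11.05 on the FA arrays (0.62 ± 0.09, SE, limma adjusted p = 0.00066). Opalin, a membrane protein of myelin, rose by 0.52. Mbp (−0.03), which encodes myelin basic protein, was not called, and Gm98, now named Myrf, the transcription factor of myelination, fell by 0.42 ± 0.08 (SE, limma adjusted p = 0.00339). Of 12 markers of striatal projection neurons 4 rose and none fell. Among these were the G protein regulator Rgs9 (0.36 ± 0.05, SE), Adcy5 and Ppp1r1b, while the dopamine receptors Drd1a (−0.03) and Drd2 (0.24) were not called. Endothelial markers went both ways, with 5 of 15 higher and 3 lower. The angiopoietin receptor Tek rose by 0.88 ± 0.14 (SE, limma adjusted p = 0.00117) and the VEGF receptors Kdr and Flt1 fell by 0.39 and 0.32. Of 15 astrocyte markers 2 fell and 2 rose (13.3% each, below the shares over all measured genes). Under scaling to the 75th percentile 33.3% of the astrocyte markers fell and 6.67% rose. Of 18 microglia markers 4 fell and 3 rose, and the share that fell, 22.2%, was 5.56% without FA array 1 and no more than 16.7% without any other single array. Gfap, the intermediate filament of astrocytes, rose by 0.32 ± 0.07 (SE, limma adjusted p = 0.00445), and the water channel Aqp4 fell by 0.35.

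Genes of glutamate synapses were more often lower than the background. Of 47 measured genes of glutamate receptors and the postsynaptic density 13 fell and 7 rose, with a median of −0.082. The NMDA receptor subunits Grin2a and Grin2b fell by 0.59 and 0.52, Grm5 by 0.54 and the scaffold Shank2 by 0.55, while Cacng3, a partner of AMPA receptors, rose by 0.59 and Homer3 by 0.48. Of 36 genes of vesicle release 9 rose and 5 fell, and among those that fell Pclo and Bsn, the giant proteins of the active zone, were lower by −0.62 and −0.31. The median of that list was 0.080 and turned to −0.002 under scaling to the 75th percentile. Its share of rises, 25%, turned to 8.33%, with 22.2% lower, under that scaling, and was 11.1% without CD array 3, FA array 1 or FA array 4. Of 31 genes of GABA and glycine synapses 6 fell (19.4%) and 5 rose (16.1%), near the 16.4% and 19.1% over all measured genes. The receptor subunit Gabra3 (−0.49) was among those that fell. The synthetic enzyme Gad1 was among those that rose (0.25 ± 0.05, SE, limma adjusted p = 0.00265). Of 15 measured genes of the serotonin system 2 fell (13.3%, below the 16.4% over all measured genes) and none rose, with a median of −0.084. The largest of these falls was that of the receptor Htr2a. It was at 9.02, 9.22, 8.87 and 8.74 on the CD arrays and at 7.77, 8.27, 7.83 and 8.16 on the FA arrays (−0.95 ± 0.13, SE, limma adjusted p = 0.000456). Of 8 measured neurotrophins and receptors 3 fell (37.5%) and none rose, and Bdnf differed by −0.04, which did not pass the test. Over all 14 bright probes of these genes 4 fell (28.6%) and 2 rose (14.3%), against 17.3% and 20% of all bright probes.

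Potassium channel genes were called in both directions at shares near the background. Kcnc2, the Kv3.2 channel of fast-spiking interneurons, was at 10.21, 10.06, 10.12 and 10.27 on the CD arrays and at 11.43, 11.34, 11.42 and 11.42 on the FA arrays, a 2.36-fold rise (1.24 ± 0.07, SE, limma adjusted p = 1.89e-05), and its probe lies at chr10:111902778-111902837 of mm9. Of 75 potassium channel genes 13 rose and 13 fell, 17.3% each, against 19.1% and 16.4% over all measured genes. Among them Kcnb2 had the largest fall (−0.86 ± 0.14, SE, limma adjusted p = 0.00123). Of 33 sodium and calcium channel genes 10 fell (30.3%) and 4 rose (12.1%), and the share that fell was 18.2% to 30.3% without single arrays. The pore subunits Scn2a1, Scn3a and Scn1a fell by 0.35, 0.36 and 0.28. Scn11a fell by 0.69 and also differed from the PR group by −0.37 (limma adjusted p = 0.0323).

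Among housekeeping assemblies the vacuolar proton pump, which acidifies lysosomes and synaptic vesicles, had more rises than the background. Of 21 measured subunits and accessory proteins 9 rose and 2 fell, with a median of 0.171. Atp6v1h, a subunit of the catalytic sector, was at 11.79, 11.58, 11.87 and 11.87 on the CD arrays and at 12.48, 12.35, 12.56 and 12.47 on the FA arrays (0.68 ± 0.08, SE, limma adjusted p = 0.00014). Atp6v1g2 rose by 0.51 and Atp6v1c1 by 0.42. The mean of the list was 0.16 to 0.20 above the CD mean on all 4 FA arrays, and the median was 0.039 under scaling to the 75th percentile. Of 56 splicing factors 16 rose and 3 fell, with Sfrs5 (0.68 ± 0.09, SE) and Sfrs6 (0.65) at the top, but the median of 0.026 turned to −0.022 under that scaling. Of 37 proteasome subunits 8 rose and 1 fell, and their median of 0.060 turned to −0.018 likewise. Replication-dependent histone genes, whose mRNAs usually lack a poly(A) tail, fell in 11 of 34 cases and rose in 2, with a median of −0.226. The largest, Hist1h4h, was at 9.32, 8.31, 7.90 and 7.79 on the CD arrays and between 6.91 and 7.18 on the FA arrays (−1.31 ± 0.29, SE, limma adjusted p = 0.0055). Of 79 cytosolic ribosomal protein genes 14 fell and 3 rose. The share that fell, 17.7%, was 58.2% under scaling to the 75th percentile, where the median went from −0.041 to −0.178, and many of these genes have near-identical pseudogenes that a probe cannot tell apart.

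For the genes of mitochondria the counts depended on the setting. Of 71 mitochondrial ribosomal protein genes 14 fell (19.7%) and 12 rose (16.9%), against 16.4% and 19.1% over all measured genes. Of 36 genes of respiratory complex I 7 fell and 4 rose (11.1%). The share of complex I subunits that fell, 19.4%, was 58.3% under scaling to the 75th percentile and 2.78% without FA array 1 or FA array 4. Of 30 heat shock genes 6 fell (20%) and 3 rose (10%). Of 34 genes of antigen presentation and the interferon response 3 fell (8.82%) and 5 rose (14.7%), both below the shares over all measured genes. Of 26 clustered protocadherins, cell surface proteins that give neurons their identity, 7 fell (26.9%) and 2 rose (7.69%). Of 274 zinc finger genes of the Zfp series 43 fell (15.7%) and 54 rose (19.7%), near the shares over all measured genes. Of 1086 olfactory receptor genes on the array, 47 counted as measured, of which 8 fell and 8 rose (17% each), also near those shares.

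A difference between the FA and PR groups, which the added folic acid separates, was called for 11 of 1533 measured list members (0.718%), which is close to the 0.707% over all measured genes. All 11 were also called between FA and CD, and 1 of them, Scn11a, between PR and CD. The differences of FA from PR and from CD use the same FA arrays. Their overlap is therefore in part built into the choice of these genes. Sfrs11, a splicing factor, was at 11.59, 11.65, 11.54 and 11.53 on the CD arrays, at 11.67, 11.72, 11.62 and 11.60 on the PR arrays and at 11.27, 11.23, 11.02 and 11.12 on the FA arrays. The FA group lay below both others for Sfrs11, by 0.49 against PR (limma adjusted p = 0.0132). Unc13c, a priming factor of synaptic vesicles, was between 10.61 and 10.86 on the CD arrays, between 10.74 and 10.98 on the PR arrays and between 10.22 and 10.53 on the FA arrays, a difference from PR of −0.53 (limma adjusted p = 0.0361). Srebf2, the transcription factor of cholesterol synthesis, was −0.39 from the PR group (limma adjusted p = 0.0446), with PR at 0.03 and FA at −0.37 from the CD group. Irs2 showed the same arrangement, with PR at 0.07 and FA at −0.35 from the CD group. Kcnk15, a background potassium channel, was between 6.42 and 6.92 on the CD arrays, between 6.44 and 6.71 on the PR arrays and at 7.68, 7.35, 7.57 and 6.98 on the FA arrays (0.86 above PR, limma adjusted p = 0.0475). Psmd9, a chaperone of proteasome assembly, was 0.25 above the PR group (limma adjusted p = 0.0372). In these 6 genes the PR group was not called against the CD group, nor was it for Sv2c, Pcdha8, Hist1h3d and Olfr1415, whereas for Scn11a the PR group was at −0.32 from the CD group (limma adjusted p = 0.00205). Other genes described above had PR values on the FA side, among them Kcnc2 (1.34 from CD), Foxo3 (−1.31), Htr2a (−0.94), Hydin (−0.65) and Klf2 (−0.58), and none of these 5 was called between FA and PR. For Klf2 that difference was −0.44 (limma adjusted p = 0.0527). For Sgk1 the PR group was −0.37 from the CD group and the FA group −0.72 from the PR group, and for Dbp these values were 0.17 and 0.34, neither called.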

How the data were processed

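RNA from whole brains was hybridised to one-colour Agilent mouse arrays, 4 per diet, and scanned with Agilent Feature Extraction 11.0.1.1 per the labels. The values used were the intensity that the authors deposited as the background-corrected processed signal of each spot. The authors also deposited a table normalized by qspline, whose log2 values served as an alternative. Here the processed signal was normalized by a rewritten qspline (100 quantiles, 5 iterations). Run on spots averaged per probe, with outlier spots kept, it differed from the log2 of the deposited values by a median of 1.83e-05. For the values used here it was run on single spots. Outlier spots were then left out and spots of a probe averaged on the log2 scale. The 12 arrays of the CD, PR and FA groups were fitted with limma 3.58.1 (R 4.3.3), and p-values were adjusted by Benjamini-Hochberg over 39429 probes. The study's methods name Tukey's test, which was run as an alternative. Positions are those of mm9 in the files. Gene names are those of the files, and 26055 probes (66.1%) matched a RefSeq accession, 3358 of them with another current symbol. The number of arrays limits the precision, and no spot was saturated.

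Named genes were the 12 largest rises and 12 largest falls without overlap, up to 5 genes each way that crossed the background limit, up to 3 members each way and the defining members of each list, and Gh, Prl and Kcnc2. Further members of a list were named to complete a group, after their values were seen. A bound set the brighter group's mean against, per array, the higher of the dim probe's own signal and the lowest signal well above background. The members and gene lists were chosen with earlier results of these data known. Nothing in the sources states that the 4 arrays of a diet come from separate mice or litters, so p-values measure the spread between these arrays, which may be technical. Alternatives covered scaling, background correction, outlier spots, the brightness filter, the variance model, the arrays in the fit, a replicate block and each array left out. The scripts were tested on simulated data. The methylation arrays were not analysed here. A few list members and 1 probe sequence are not reported here.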

Additional observations from a re-analysis of the deposited data

Results flagged for a closer look

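Single arrays stood apart from the other 3 of their group in 7 of 66 groups tested, by a gap to the nearest array beyond Dixon's critical value. The number given is that gap over the group's range, and chance flags about 1 in 20 groups. On the FA side these were Prl, with array 4 high (0.985), Gh, with array 4 high (0.917), Gm2557, with array 1 low (0.894), Tmc2, with array 1 high (0.875), and Kcnc2, with array 2 low (0.868). On the CD side they were Fgf7, with array 1 high (0.920), and Gh, with array 2 high (0.841). The range of Kcnc2 over the FA arrays was small, from 11.34 to 11.43.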

How the results depend on the processing

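Of the named genes, 33 were rerun one by one: the largest differences, the genes that crossed the background limit, and Gh, Prl and Kcnc2. None of these 33 changed sign under the alternatives run. The other named list members were rerun only within their lists, so their single values carry no such check. List medians did change: of 57 lists, 10 changed sign under scaling to the 75th percentile, 6 with normexp and 4 to 7 without 1 array. With normexp 19 of the 33 genes were smaller by over 1.5 times. At an adjusted p under 0.05, the probes lower and higher in the FA group, 7210 and 6473, stayed within 1.5 times of these counts under the alternatives run, apart from 4214 lower probes when only bright probes were tested, but higher probes outnumbered lower ones with normexp (4886 and 6312) and among bright probes (4214 and 4853). They ranged from 6172 to 7264 and from 5380 to 6728 when 1 array was left out. The counts at 2-fold and an adjusted p under 0.0001, 25 lower and 53 higher, were unstable. They came to 162 and 93 after quantile normalization, 82 lower after scaling to the 75th percentile, 10 and 8 after normexp background correction, and 16 and 13 among bright probes. They were 0 and 0 with limma on the FA and CD arrays alone and by Tukey's test, although 17127 and 14193 probes had an unadjusted p under 0.05, and 0 to 4 and 0 to 13 without 1 array. With the replicate number as a block they were 1 and 0, and the other counts 6731 and 6107. Deviations of same-numbered CD and FA arrays correlated at −0.004, 0.208, 0.082 and −0.063. For CD arrays 2 and 3 the FA array of the same number correlated best. These few values cannot decide whether the numbers pair the samples. The count of lists with a median below that of all genes was 37 and ranged from 33 to 40, and from 33 to 37 without 1 array. The cause of these shifts was not tested. Among the 33 genes rerun one by one, calls were lost for Phlpp2, Mtmr3 (limma adjusted p = 0.053 on the 8 arrays) and 1700061I17Rik (without CD array 3 or FA array 3 or 4).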

Other observations

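Among genes with a mean log2 level over 10, the 100 that varied most on the PR arrays had a median SD of 0.199 on the FA arrays and 0.125 on the CD arrays. Their median SD of 0.311 on the PR arrays is high by the choice of these genes. Of the 100, 66 had a smaller SD on the CD than on the FA arrays, as did 3688 of all 9222 genes of such a level. Probe base composition went with the direction of calls: bright probes of at most 35% GC were lower in 19.3% and higher in 13.4% of cases, and those above 50% GC in 15.4% and 23.3%.

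Omp and S100a5, markers of olfactory sensory neurons, varied more among the FA than the CD arrays. Omp was at 11.51, 11.60, 11.40 and 11.38 on the CD arrays and at 10.07, 11.68, 11.79 and 9.31 on the FA arrays, and S100a5 at 11.47, 11.59, 11.67 and 11.72 on the CD arrays and at 10.75, 11.98, 11.98 and 9.57 on the FA arrays. Neither was called (limma adjusted p = 0.277 for Omp and 0.419 for S100a5), and both were chosen after their values were seen.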
